A study of Homo sapiens with 6 samples.

Results

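DNAJ proteins, also called HSP40 or J proteins, are the co-chaperones that bring unfolded proteins to HSP70 and start its ATP hydrolysis. The table held 41 genes whose symbol is DNAJA, DNAJB or DNAJC followed by a number, of 29489 genes in all: 4 of class A, 11 of class B and 26 of class C. Symbols with a suffix, such as pseudogenes, antisense genes and the readthrough gene DNAJC25-GNG10, were not members.

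The measurement was poly(A) RNA-seq of SU-DHL-4, a cell line grown from a diffuse large B-cell lymphoma. Of its 6 samples, 3 are titled CON and 3 KD, and the labels name neither the gene nor the agent behind KD; the series title concerns ZHX2 (a zinc finger and homeobox factor), SLC3A2 and ferroptosis. The columns of replicate 1 are derived values: within a relative tolerance of 1e-09 they equal the mean of replicates 2 and 3 over 1.1 in CON, in 29488 genes, and over 1.2 in KD, in 29489. KD was therefore compared with CON in replicates 2 and 3 of each group (n = 2), and whether these were separate cultures is not labelled, so a p-value here reflects only the spread between the libraries, which may be technical. Values were FPKM, which are scaled by transcript length and library total, so levels of different genes can be set side by side while the sequencing depth stays unknown. ZHX2 stood at 38.5 and 36.7 FPKM in CON against 10.96 and 11.04 FPKM in KD, but its row is the only exception to the rule for CON replicate 1 and was not used as a check of the labels. Of the B cell markers, MS4A1 (CD20) measured 86.37 and 86.43 FPKM in CON against 116.6 and 123.8 FPKM in KD, PAX5 43.1 and 43.2 against 44.5 and 43.3 FPKM, and CD79A 372.6 and 377.4 against 200.3 and 205.7 FPKM. Markers of other cells were low. The 4 of 7 T and NK cell markers with a row summed to 1.34 and 1.82 FPKM in CON against 0.968 and 0.881 in KD, most of it NKG7. The 5 of 6 myeloid markers summed to 0.0502 and 0.0542 against 0.590 and 0.492 FPKM, with ITGAM, FCGR1A and LYZ listed at 0 in both CON libraries. The 2 of 6 epithelial and fibroblast markers, DCN and COL1A1, summed to 3.44 and 3.45 against 2.29 and 1.91 FPKM. The part of these markers in the results was not tested. Genes with a mitochondrial (MT-) name made up 25.9% and 25.6% of all FPKM in the CON pair, against 29.9% and 30.3% in the KD pair, and the part of this shift was not tested either.

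All J proteins share a J domain that binds HSP70. Class A members add a glycine- and phenylalanine-rich stretch and a zinc finger, class B members the stretch without the zinc finger, and class C members neither in full, so that class C is a mixed group whose J domain sits beside many other parts. Cells place different members in different compartments, each with its own HSP70: HSPA8 and the inducible HSPA1A and HSPA1B in the cytosol and nucleus, HSPA5 (BiP) in the endoplasmic reticulum and HSPA9 (mortalin) in mitochondria. A few members are textbook targets of the heat shock factor HSF1, and others are induced by the unfolded protein response of the endoplasmic reticulum.

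The heat shock element, to which HSF1 binds, is built from inverted GAA units, and promoter stretches of 5 members are shown. DNAJA1, DNAJB1, DNAJB4 and DNAJA4 are the listed heat-inducible members, the first 3 with the largest changes below, and DNAJB6 is shown for its match to the full motif. They are the 250 bases before a RefSeq transcription start (GRCh38.p14), 5′ to 3′ on the gene's strand, with the GAA and TTC units of every match to GAANNTTC or TTCNNGAA in capitals. The DNAJB1 stretch is chr19:14518398-14518647, minus strand. The DNAJA4 stretch is chr15:78264312-78264561, the DNAJB4 stretch chr1:78004689-78004938, the DNAJB6 stretch chr7:157336754-157337003 and the DNAJA1 stretch chr9:33025023-33025272, all plus strand.
DNAJB1: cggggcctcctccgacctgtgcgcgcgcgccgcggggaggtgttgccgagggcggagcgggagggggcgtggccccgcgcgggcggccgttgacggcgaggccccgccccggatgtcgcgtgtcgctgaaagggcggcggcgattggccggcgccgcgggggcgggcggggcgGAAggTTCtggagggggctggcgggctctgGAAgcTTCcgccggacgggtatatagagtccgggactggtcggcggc
DNAJA4: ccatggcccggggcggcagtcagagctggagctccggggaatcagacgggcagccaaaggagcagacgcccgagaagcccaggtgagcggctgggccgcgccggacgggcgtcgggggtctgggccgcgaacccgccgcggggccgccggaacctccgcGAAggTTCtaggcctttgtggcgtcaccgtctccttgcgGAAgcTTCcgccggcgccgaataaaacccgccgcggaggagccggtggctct
DNAJB4: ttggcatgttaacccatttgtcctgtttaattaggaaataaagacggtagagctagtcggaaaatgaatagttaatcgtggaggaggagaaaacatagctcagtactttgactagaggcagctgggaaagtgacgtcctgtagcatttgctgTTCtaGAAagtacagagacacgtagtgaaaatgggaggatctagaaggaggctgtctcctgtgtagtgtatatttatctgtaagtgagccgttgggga
DNAJB6: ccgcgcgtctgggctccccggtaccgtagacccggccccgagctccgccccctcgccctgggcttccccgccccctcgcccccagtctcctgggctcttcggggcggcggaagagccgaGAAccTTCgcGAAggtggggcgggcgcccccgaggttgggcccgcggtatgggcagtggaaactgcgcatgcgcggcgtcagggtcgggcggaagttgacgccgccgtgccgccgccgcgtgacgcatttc
DNAJA1: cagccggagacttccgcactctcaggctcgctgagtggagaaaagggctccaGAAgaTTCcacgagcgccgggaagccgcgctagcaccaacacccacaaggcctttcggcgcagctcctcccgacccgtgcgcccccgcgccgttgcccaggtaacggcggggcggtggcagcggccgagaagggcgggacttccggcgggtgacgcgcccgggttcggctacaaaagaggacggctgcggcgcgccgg
Counting from the start base as 1, with the base before it as -1, the DNAJB1 stretch held GAAggTTC at -77 to -70 and GAAgcTTC at -47 to -40. DNAJB1 has 3 listed starts, of which another, not shown, has GAAgcTTC at 2 to 9 as its only match. DNAJA4 held the same 2 octamers, at -91 to -84 and -52 to -45. DNAJB4 held TTCtaGAA at -98 to -91 before the second of its 2 listed starts. In DNAJB6 the units ran on into a full match of 3 units, GAAccTTCgcGAA, at -131 to -119. DNAJA1 held a full match just past its start, GAActTTCcaGAA at 4 to 16, and GAAgaTTC at -198 to -191.

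The 3-unit motif (GAANNTTC followed by NNGAA, or TTCNNGAA followed by NNTTC, where each is the reverse complement of the other) was found in these 2 of the 38 members with a RefSeq window, DNAJA1 and DNAJB6, and in 166 of all 27305 genes (0.608%). Windows ran from 250 bases before to 50 bases after each listed start, and a gene counted if any of its windows held a match. The 2-unit motif was searched after the 3-unit result had been seen, and each 3-unit match holds both of its forms. It was found in 8 of 38 members, against 16.2% of all genes with a window. Of these 8, DNAJA1, DNAJB1, DNAJB4 and DNAJB6 passed the filter on low values, and DNAJA4, DNAJB7, DNAJC6 and DNAJC15 did not. All 4 that passed are among the members that rose, where 27.6% of all tested genes were called higher. How many of all genes with the motif rose was not counted, and a link between the motif and a rise was not tested. The ER stress element (CCAAT and CCACG with 9 bases of any kind between them, both strands) was found in 0 of 38 members (0.092% of genes), and the UPR element TGACGTGG, searched on both strands, in 1, DNAJC10 (0.927% of genes), as CCACGTCA at -125 to -118. A match is a run of letters and not evidence of binding.

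Over all members, KD and CON differed in both directions. A gene was tested if it reached 1 FPKM in at least 2 of the 4 libraries, which 34 of the 41 members did, and the test was limma's moderated test on log2(FPKM + 1) with Benjamini-Hochberg adjustment over all 11916 tested genes and a threshold of 0.05. Of the 34, 13 rose and 12 fell, and 9 did not pass. The 12 became 7 without CON replicate 2, 5 without CON replicate 3, 6 without KD replicate 2 and 8 without KD replicate 3, and 5 when no filter was used. In the main fit 58.6% of all tested genes were called, 27.6% higher and 31.1% lower, against 73.5% of the tested members. The shares over all genes in the alternative fits are not given here, so the smaller counts have no background beside them. The median log2 change of the 34 was -0.0048, beside -0.022 for all tested genes, and with the 7 low members included it was 0.0053. The changes were uneven: 4 members rose at least 2-fold on the fitted scale, DNAJB1, DNAJB4, DNAJA1 and DNAJB9, where 2.91% of tested genes did, and 0 fell that far, where 2.25% did. No falling member had a log2 change below -0.52. The libraries of the groups did not overlap for 30 of the 34, as for 81.6% of tested genes.

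**Figure D1:**
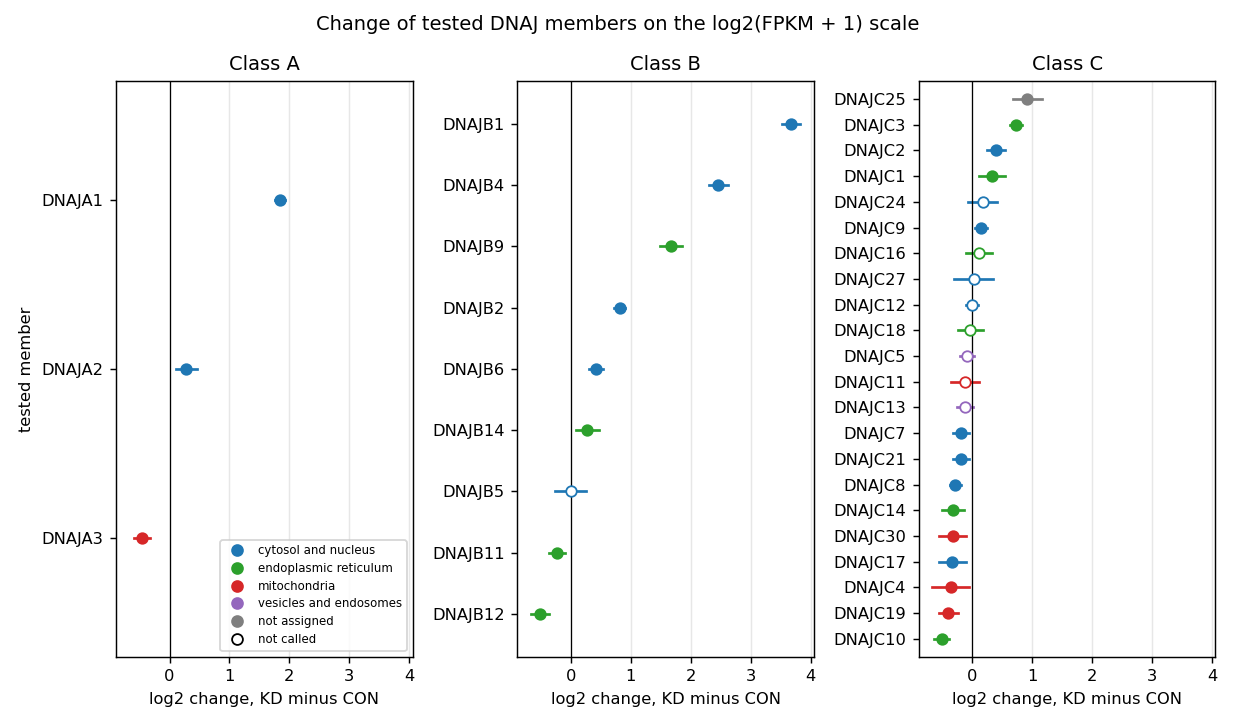
Each point is the log2 change (KD minus CON, log2(FPKM + 1) scale) of a tested member in its class panel, with its 95% interval from limma (n = 2 libraries a group), coloured by compartment and open where the adjusted p missed 0.05. DNAJB1, DNAJB4, DNAJA1 and DNAJB9 lie above 1, and the 5 mitochondrial members lie at or below -0.12.

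DNAJB1 had the largest rise. This class B protein of the cytosol and nucleus is the classic heat-inducible HSP40 (ENSG00000132002, GRCh38 chromosome 19, 14514770 to 14529770, GENCODE 29). It had 5.54 and 4.87 FPKM in CON replicates 2 and 3, and 78.7 and 77.8 in the same KD replicates, a 15.0-fold higher mean. Both KD libraries lay far above both CON libraries. On the log2(FPKM + 1) scale it rose by 3.68 (SE 0.0596, limma adjusted p = 1.62e-05), the 10th highest value among the 11916 tested genes. DNAJB1 went from the 20th most abundant member in CON to the 2nd in KD.

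DNAJB4, a heat-inducible relative of DNAJB1 (chromosome 1, 77979175 to 78017964), was 3.84 and 3.43 FPKM in the CON pair and 24.9 and 24.1 FPKM in the KD pair. The log2 change of DNAJB4 was 2.46 (SE 0.0602, limma adjusted p = 3.95e-05), rank 35 of all tested genes, and the groups did not overlap. DNAJA1, the heat-inducible class A protein that works with HSPA8 in the cytosol (chromosome 9, 33025211 to 33039907), was already the 2nd most abundant member in CON. It rose from 25.3 and 24.1 FPKM to 91.4 and 91.5 FPKM (log2 change 1.85, SE 0.033, limma adjusted p = 1.75e-05) and was the most abundant member in KD. The fourth member of the heat-inducible list, DNAJA4, was listed at 0 in both CON libraries and at 0.00824 and 0.0277 FPKM in KD, so it was barely detected. In this list 3 of 3 tested members rose, with a median log2 change of 2.46. With DNAJA4 included and no filter the median was 2.15. For all tested genes the median was -0.022, with 27.6% called higher and 2.91% called at least 2-fold higher. The list was drawn up with earlier results of these data known, so its direction is not independent evidence.

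The difference in the family total lay mainly in DNAJA1, DNAJB1 and DNAJB4. Summed FPKM of the 41 members was 310 and 306 in the CON pair, against 477 and 480 in the KD pair, a 1.55-fold higher mean. The 3 genes made up 34.6 and 32.4 FPKM of it in CON and 195 and 193 FPKM in KD, or 11.2% and 10.6% against 40.9% and 40.3%. Without them the other 38 members came to 275 and 273 FPKM in CON against 282 and 286 FPKM in KD, a 1.04-fold higher mean. With 2 libraries against 2, the two-sided exact permutation p of each sum was 0.333, which is the lowest it can be. In bulk RNA, more cells with a transcript and more transcript per cell cannot be told apart.

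**Figure D2:**
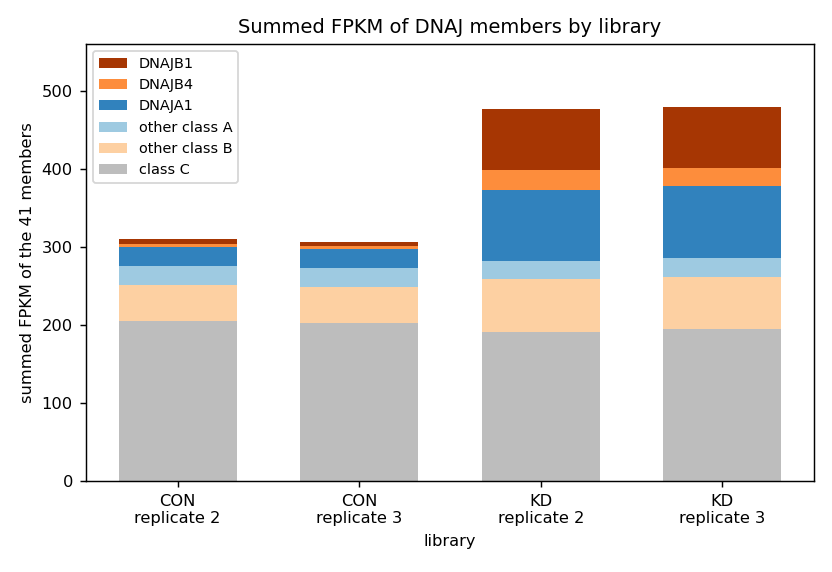
Bars are the summed FPKM of the 41 members in each of the 4 libraries, split into DNAJB1, DNAJB4, DNAJA1, the other members of class A, those of class B, and class C. The totals of 310 and 306 in CON and 477 and 480 in KD differ mainly by the 3 named genes, while class C stays between 191 and 206.

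The classes are given side by side, and no difference between them was tested. In class A, 2 of 3 tested members rose and 1 fell, and the median log2 change was 0.28. In class B, 6 of 9 rose and 2 fell, with a median of 0.41. In class C, 5 of 22 rose and 9 fell, the median was -0.11 and the range ran from -0.52 to 0.92. Summed FPKM of class A was 48.7 and 48.7 in CON and 115 and 116 in KD, that of class B 55.3 and 54.4 against 172 and 169, and that of class C 206 and 203 against 191 and 195. Among all tested genes 27.6% were called higher and 31.1% lower. Of the 9 falls in class C, those of DNAJC4, DNAJC7, DNAJC14, DNAJC17, DNAJC21 and DNAJC30 were lost without at least 1 library, as given for each below. The medians also moved with the filter: that of class A was 0.15 and that of class C -0.0615 with none, and that of class B was 0.81 when a mean of 5 FPKM was required. Class C held 66.4% and 66.3% of the family total in CON and 40.0% and 40.7% in KD.

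Of 17 cytosolic and nuclear members, 16 were tested: 8 rose, 4 fell, and the median log2 change was 0.16. Without DNAJA1, DNAJB1 and DNAJB4, 5 of 13 tested rose and 4 fell, and the median was 0.02. Those left out are the members with the largest rises, so the median is lower without them by construction. For comparison, 27.6% of all tested genes were called higher and 31.1% lower, with a median of -0.022. DNAJB2, which carries ubiquitin-interacting motifs, measured 11.7 and 11.6 FPKM in the CON libraries, against 21.4 and 21.1 in the KD libraries (log2 change 0.81, SE 0.0363, limma adjusted p = 1.91e-04). DNAJB6, a suppressor of polyglutamine aggregation, had 9.49 and 9.14 FPKM in CON replicates 2 and 3, and 13.0 and 12.5 in the same KD replicates (log2 change 0.41, limma adjusted p = 0.00196). Both were higher in each KD library than in either CON library. DNAJB5, the close relative of DNAJB1 and DNAJB4, did not pass: it was 2.34 and 2.22 FPKM in the CON pair and 2.50 and 2.03 FPKM in the KD pair, and the 95% interval of its log2 change ran from -0.27 to 0.25. DNAJA2, the other abundant class A protein of the cytosol, had a log2 change of 0.28 (12.6 to 15.5 FPKM), a call that ended without CON replicate 2 or without KD replicate 3 (limma adjusted p = 0.0908 and 0.0783).

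DNAJC2 forms the ribosome-associated complex with the HSP70 relative HSPA14 and rose from 4.34 and 4.13 FPKM to 5.743 and 5.999 FPKM (log2 change 0.39, limma adjusted p = 0.00458). HSPA14 rose beside it, from 8.28 to 11.8 FPKM (a log2 change of 0.46, limma adjusted p = 0.00114). DNAJC8, a spliceosome-associated protein, was the most abundant member in CON and fell from 44.4 and 42.8 FPKM to 34.8 and 36.4 FPKM (log2 change -0.28, limma adjusted p = 0.00322). In KD it ranked behind DNAJA1 and DNAJB1. DNAJC17, also a nuclear splicing protein, measured 4.78 and 4.45 FPKM in the CON libraries, against 3.74 and 3.17 in the KD libraries (log2 change -0.34). Small changes were called for DNAJC9, a histone co-chaperone (0.14), DNAJC7, which binds HSP70 and HSP90 through TPR repeats (-0.19), and DNAJC21, a factor of 60S ribosome maturation (-0.19). The calls of DNAJC7, DNAJC9 and DNAJC21 ended whichever of the 4 libraries was left out (limma adjusted p from 0.0523 to 0.152), and that of DNAJC17 without either CON library or without KD replicate 3 (0.0657 to 0.118). DNAJC12, which assists the aromatic amino acid hydroxylases, was the third most abundant member in CON, with a mean of 18.8 FPKM in both groups, with a 95% interval of the log2 change from -0.11 to 0.10. DNAJC24, which serves diphthamide synthesis, had a mean of 1.68 FPKM in CON and 2.01 FPKM in KD, and DNAJC27, a RAB-related GTPase, a mean of 1.27 FPKM in CON and 1.29 FPKM in KD; neither passed.

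**Figure D3:**
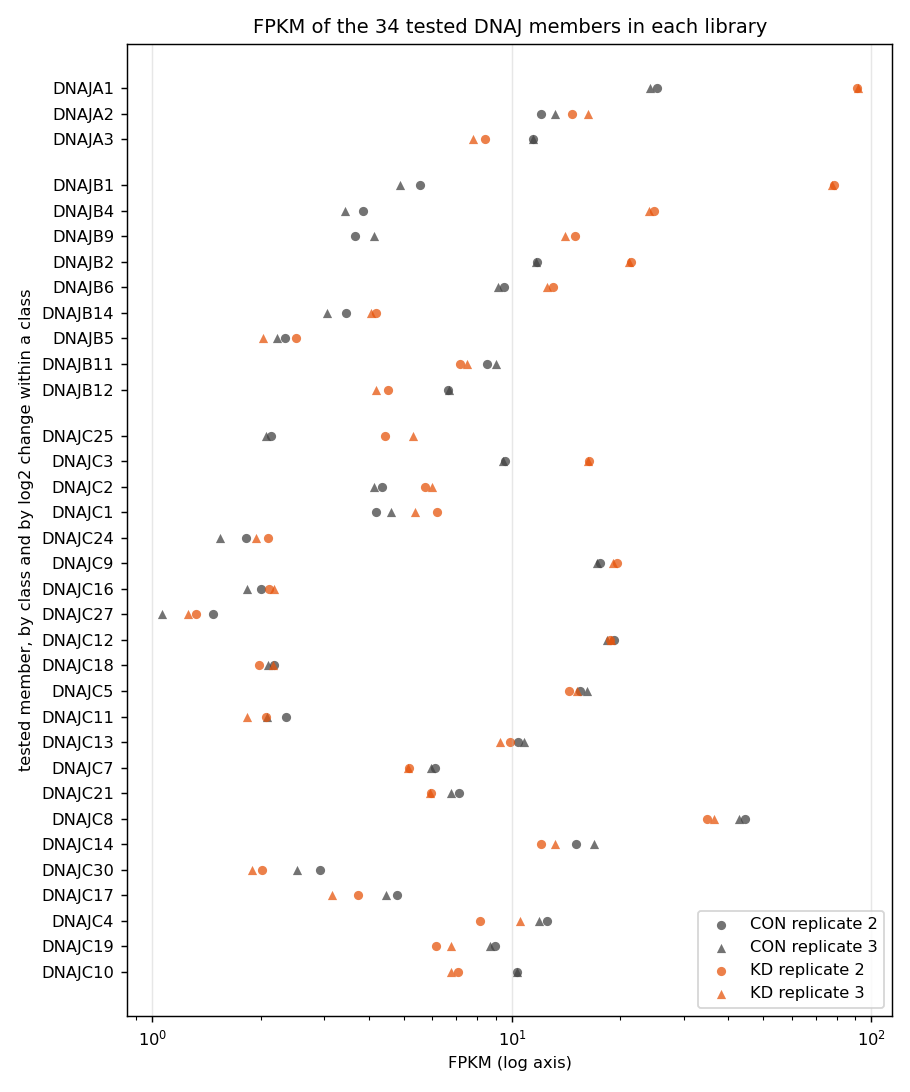
FPKM (log axis) of each tested member in CON replicates 2 and 3 and KD replicates 2 and 3, grouped by class A, B and C from top to bottom and ordered by log2 change within a class. KD and CON points lie far apart for DNAJB1, DNAJB4, DNAJA1 and DNAJB9 and overlap for DNAJB5, DNAJC12, DNAJC18 and DNAJC27.

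Members of the endoplasmic reticulum were called in both directions, as were tested genes at large (27.6% higher and 31.1% lower). All 10 were tested, 4 rose, 4 fell, and their median log2 change was 0.04, beside -0.022 for all tested genes. DNAJB9 (ERdj4), which holds the stress sensor IRE1 inactive together with HSPA5, was 3.65 and 4.13 FPKM in the CON pair and 14.9 and 14.0 FPKM in the KD pair (log2 change 1.66, SE 0.0695, limma adjusted p = 1.65e-04). DNAJC3 (P58IPK), an inhibitor of the kinases PKR and PERK and a lumenal co-chaperone, rose from 9.55 and 9.47 FPKM to 16.4 and 16.3 FPKM (log2 change 0.72, limma adjusted p = 2.87e-04). In both, each KD library lay above each CON library. DNAJC10 (ERdj5), a disulfide reductase of misfolded proteins, went the other way, from 10.3 and 10.3 FPKM to 7.06 and 6.79 FPKM (log2 change -0.52, SE 0.0464, limma adjusted p = 0.00107). DNAJB11 (ERdj3), which binds unfolded chains with HSPA5, had a log2 change of -0.23 (8.77 to 7.32 FPKM). Its call ended without CON replicate 3 or without KD replicate 2 (limma adjusted p = 0.104 and 0.0689). These 4 genes are known to be induced by the unfolded protein response, and of this list 2 rose and 2 fell.

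The HSP70 of this compartment, HSPA5, rose from 34.5 and 33.1 FPKM to 55.2 and 54.9 FPKM (log2 change 0.69, limma adjusted p = 2.09e-04). Per unit of HSPA5 FPKM, DNAJB9 went from 0.106 and 0.125 to 0.271 and 0.256, and DNAJC3 from 0.277 and 0.286 to 0.297 and 0.296. Over the same libraries DNAJC10 went from 0.299 and 0.311 to 0.128 and 0.124, and DNAJB11 from 0.247 and 0.273 to 0.130 and 0.136. DNAJC10 thus had the highest of the 4 ratios in each CON library and the lowest in each KD library. DNAJB11, whose ratio fell as well, lay close to it in KD, at 0.130 against 0.128 in replicate 2.

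DNAJB12, a protein of the reticulum membrane that faces the cytosol and serves degradation of membrane proteins, measured 6.64 and 6.70 FPKM in the CON libraries, against 4.51 and 4.20 in the KD libraries, the largest fall of any member (log2 change -0.52, SE 0.0579, limma adjusted p = 0.00192). Its close relative DNAJB14 had 3.44 and 3.05 FPKM in CON replicates 2 and 3, and 4.18 and 4.05 in the same KD replicates (log2 change 0.27, limma adjusted p = 0.0303). DNAJC14 was 15.1 and 16.9 FPKM in the CON pair and 12.0 and 13.2 FPKM in the KD pair (log2 change -0.32), and DNAJC1 (ERdj1), which binds ribosomes at the membrane, was 4.19 and 4.62 against 6.18 and 5.38 FPKM (log2 change 0.33). The DNAJB14 call ended whichever library was left out (limma adjusted p from 0.0506 to 0.147). That of DNAJC1 ended without either CON library or without KD replicate 2 (0.0507 to 0.113), and that of DNAJC14 without CON replicate 3 or KD replicate 2 (0.0646 and 0.0641). DNAJC16 had a mean of 1.92 FPKM in CON and 2.14 FPKM in KD, and DNAJC18 a mean of 2.14 FPKM in CON and 2.06 FPKM in KD; neither passed.

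Mitochondrial members were lower in KD where they were called. Of 7, 5 were tested: 4 fell, 0 rose, and the median log2 change was -0.36. Across all tested genes, 31.1% were called lower. DNAJA3 (TID1), the class A partner of HSPA9 in the matrix, had 11.45 and 11.45 FPKM in CON replicates 2 and 3, and 8.405 and 7.771 in the same KD replicates (log2 change -0.45, SE 0.0528, limma adjusted p = 0.00216). DNAJC19, a part of the motor that pulls proteins through the inner membrane, was 8.95 and 8.71 FPKM in the CON pair and 6.14 and 6.75 FPKM in the KD pair (log2 change -0.40, limma adjusted p = 0.00458). Both kept their calls in all 12 alternatives, median-ratio scaling of the libraries among them. DNAJC4, placed in mitochondria by hand, measured 12.5 and 11.9 FPKM in the CON libraries, against 8.14 and 10.5 in the KD libraries, so its KD libraries were far apart (log2 change -0.36, SE 0.117, limma adjusted p = 0.0485). DNAJC30, which is found with ATP synthase and complex I, had 2.92 and 2.52 FPKM in CON replicates 2 and 3, and 2.01 and 1.89 in the same KD replicates (log2 change -0.33, limma adjusted p = 0.0284). The DNAJC4 call was lost in 9 of the 12 alternatives, among them without either CON library or without KD replicate 2 (0.0595 to 0.155). DNAJC30 lost its call whichever library was left out (0.05 to 0.148). DNAJC11, a protein of cristae organization, had a mean of 2.21 FPKM in CON and 1.95 FPKM in KD and did not pass. DNAJC28, with means of 0.591 and 0.296 FPKM, and DNAJC15, with means of 0.324 and 0.308 FPKM, were below the filter. HSPA9 fell as well, from 29.3 and 30.3 FPKM to 17.1 and 18.5 FPKM (log2 change -0.71, limma adjusted p = 4.96e-04). The DNAJA3 level per unit of HSPA9 was 0.390 and 0.378 in CON and 0.491 and 0.421 in KD.

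Of 3 vesicle and endosome members, 2 were tested and 0 were called (0 also at an unadjusted limma p under 0.05). Of all 11916 tested genes, 58.6% were called, and 7615 had an unadjusted limma p under 0.05. With only 2 members, a difference from that share cannot be judged. DNAJC5, the cysteine string protein of secretory vesicles, was 15.4 and 16.2 FPKM in the CON pair and 14.4 and 15.2 FPKM in the KD pair, with a 95% interval of the log2 change from -0.21 to 0.03. DNAJC13 (RME-8), an endosomal sorting protein, measured 10.4 and 10.8 FPKM in the CON libraries, against 9.90 and 9.28 in the KD libraries (log2 change -0.13, limma adjusted p = 0.0843). The neuronal uncoating factor DNAJC6 (auxilin) was at most 0.0139 FPKM in any library. Its widely expressed relative GAK, a J protein whose symbol lies outside the rule, rose from 6.47 to 8.07 FPKM (a log2 change of 0.28, limma adjusted p = 0.00647).

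DNAJC25, a membrane protein that was given no compartment, had the largest rise in class C. It had 2.13 and 2.07 FPKM in CON replicates 2 and 3, and 4.44 and 5.30 in the same KD replicates (log2 change 0.92, SE 0.0923, limma adjusted p = 0.00147). The readthrough gene DNAJC25-GNG10, on the same strand, covers 13.8% of the exon bases of DNAJC25. It went from 3.31 to 6.26 FPKM (a log2 change of 0.75, limma adjusted p = 0.00769), so reads of the pair may have been split between them. The remaining low members were DNAJC22, listed at 0 in both CON libraries and at 0.0468 and 0.0773 FPKM in KD, and DNAJB7 at no more than 0.0564 FPKM. DNAJB13, which is known from the axoneme of cilia and sperm, was 0.124 and 0.118 FPKM in the CON pair and 0.635 and 1.33 FPKM in the KD pair, below the filter. In the fit with no filter its value was 0.80 on the log2 scale (SE 0.208, limma adjusted p = 0.0925). Of the 43 family members placed in compartments by hand, the testis genes DNAJB3 and DNAJB8 had no row and were not analysed here.

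Exons of 22 of the 41 members overlap those of another gene in GENCODE 29 (GRCh38), and whether the counting used strand is not stated. The overlap reaches 20% of the member's exon bases for 6, DNAJB7, DNAJB13, DNAJC9, DNAJC11, DNAJC14 and DNAJC17. DNAJC11, at 27.9%, shares most with THAP3 on the opposite strand, whose log2 change was -0.32. DNAJC14 shares 23.2% with AC023055.1 on the same strand, whose log2 change was 0.40, and 21.9% with ORMDL2 on the opposite strand (-0.42). DNAJC9 shares 24.0% with FAM149B1 on the opposite strand (-0.38). DNAJC17 shares 20.4% with GCHFR on the opposite strand, which fell from 102 to 61.5 FPKM. DNAJC30 shares 14.45% with BUD23, also on the opposite strand and far more abundant, with means of 62.4 FPKM in CON and 61.3 FPKM in KD. DNAJC4 shares 10.58% with NUDT22 on the same strand, with means of 10.25 FPKM in CON and 7.90 FPKM in KD (log2 change -0.34). For DNAJB1 the largest overlap was 5.75%, with TECR, and DNAJA1 had none. Levels of members that share many exon bases are uncertain to that extent.

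Other genes of the HSP70 cycle were taken from lists drawn up for this comparison, and their counts stand beside the 27.6% of all tested genes called higher and the 31.1% called lower. Of 12 HSP70 genes, 7 were tested, of which 5 rose and 1 fell. HSPA8 rose from 51.7 and 53.1 FPKM to 275 and 279 FPKM, HSPA1A from 3.999 and 3.742 to 201 and 194 FPKM, and HSPA1B from 6.83 and 6.52 to 329 and 321 FPKM. The sequences of HSPA1A and HSPA1B are nearly the same, so the split of reads between them is uncertain. In ratio to these partners, DNAJA1, DNAJB1 and DNAJB4 summed went, per unit of summed HSPA8, HSPA1A and HSPA1B, from 0.554 and 0.512 in CON to 0.242 and 0.244 in KD. DNAJB1 per unit of DNAJA1 was 0.219 and 0.202 in CON, against 0.861 and 0.850 in KD.

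Nucleotide exchange factors, which release ADP and end the cycle begun by J proteins, were divided, with 6 higher and 5 lower of 13 tested. HSPH1 (HSP110) rose from 13.1 to 48.3 FPKM (log2 change 1.81), BAG3 from 1.18 to 4.21 FPKM (1.26) and BAG2 from 5.22 to 8.92 FPKM (0.67). HSPBP1, a cytosolic exchange factor, fell by 0.57 and GRPEL2, of mitochondria, by 0.54 on the log2 scale. Among 6 regulators 3 rose and 2 fell, with STIP1, which passes clients from HSP70 to HSP90, at 0.30, HSF2 at 0.42 and the ubiquitin ligase STUB1 at -0.24. HSF1, the factor that drives heat shock genes, had a mean of 18.9 FPKM in CON and 19.2 FPKM in KD and did not pass. Of the J proteins under other symbols, GAK rose, as given above. DNAJC5G measured 0.851 and 0.962 FPKM in CON against 1.85 and 1.69 FPKM in KD, and since it passed the filter only through its KD libraries, no call is read from it. SEC63, the J protein of the translocation pore, had a mean of 12.7 FPKM in CON and 11.4 FPKM in KD (limma adjusted p = 0.0579), and HSCB did not pass either.

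**Figure D4:**
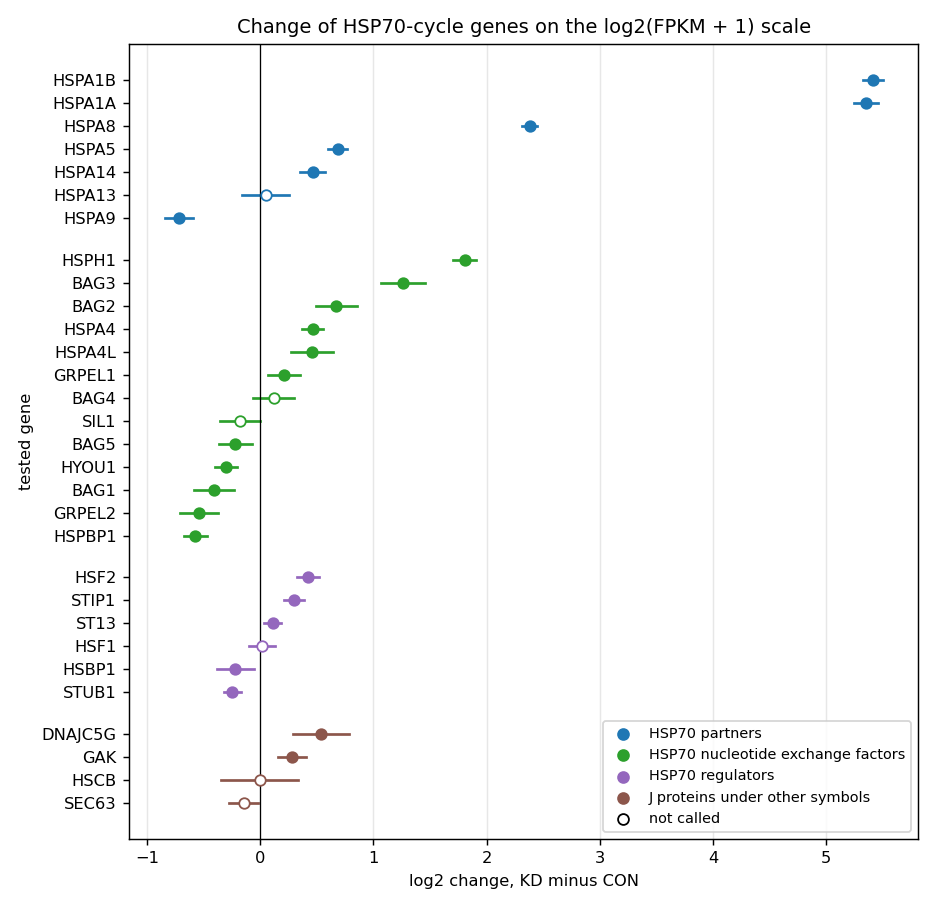
Log2 change (KD minus CON, log2(FPKM + 1) scale) with its 95% interval from limma (n = 2 libraries a group) for tested HSP70 genes, exchange factors, regulators and 4 J proteins under other symbols; open points missed an adjusted p of 0.05. HSPA1B, HSPA1A, HSPA8 and HSPH1 lie above 1.8 and HSPA9 lies lowest at -0.71. DNAJC5G is drawn filled, but no call is read from it, since it passed the filter only through its KD libraries.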

How the data were processed

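Poly(A) RNA was sequenced after second-strand synthesis with dUTP, per the labels' protocols. GRCh38 and the tools HISAT2, StringTie, fastp and edgeR are listed, without versions or roles, per the submitters' processing notes; an annotation release and a strand setting are not given in the sources used. The authors deposited FPKM per gene and sample, per the file headers. Low values held no common step between libraries (the most frequent ratio occurred in no more than 30 of 3454 single-transcript genes), so whole reads could not be recovered and depth is unknown.

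Values were taken as log2(FPKM + 1) for the 11916 genes that reached 1 FPKM in 2 or more of the 4 libraries and fitted with limma 3.58.1 (R 4.3.3), group as the only term, with a mean-variance trend (2 residual and 2.85 prior degrees of freedom). A fold on this scale understates changes of low genes. The fit was tested on simulated data for KD against CON (10 draws, 11916 genes, 200 of them altered): it found 51.4% of the 1.5-fold and 76.9% of the 2-fold alterations, and 3.19% of its calls were false. In the data 6986 genes (58.6%) were called, far more than the 200 altered here. The adjusted threshold depends on that share, so these rates do not carry over to the data. All 41 members are named, and the 8 largest rises and falls are given per library. The 2-unit promoter motif was added after the first motif results were seen. Members and lists were chosen with earlier results of these data known; compartments are textbook assignments made by hand. Alternatives changed the scaling, pseudocount, filter, trend, columns, replicate block and libraries. Planned protein features were not analysed here, and a few listed genes are not reported here. Sequences are RefSeq's, matched by symbol for 38 of 41 members.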

Additional observations from a re-analysis of the deposited data

How the results depend on the processing

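Of the 25 called members, 14 kept their call in every one of the 12 alternatives that tested them: DNAJA1, DNAJB1, DNAJB2, DNAJB4, DNAJB6, DNAJB9, DNAJC2, DNAJC3 and DNAJC25 higher, and DNAJA3, DNAJB12, DNAJC8, DNAJC10 and DNAJC19 lower. The other 11 lost it without at least 1 library, and 0 called members changed direction. The alternative with all 6 columns counts the derived replicate 1 columns as replicates, so a call kept in it is no independent check. Shares of all genes called in each alternative are not given here, so the counts below have no background beside them. The count of members called lower, 12, was 5 with no filter on low values and 5 to 8 with a library left out, and that of members called higher, 13, was 9 to 10 with a library left out. Class medians moved: that of class A was 0.15 with no filter (range 0.21 to 0.35 with a library left out), that of class B 0.81 when a mean of 5 FPKM was required (0.39 to 0.44), and that of class C -0.0806 under median-ratio scaling, -0.0615 with no filter, -0.16 at 5 FPKM and -0.14 with all 6 columns (-0.11 to -0.08). Of the 9 uncalled members, 4 changed sign: DNAJB5 (0.0141 under median-ratio and 0.0311 under quantile scaling, and -0.11 to 0.097 with a library left out), DNAJC12 (0.0273 under median-ratio scaling, and -0.0347 to 0.0306), DNAJC18 (0.0051 under quantile scaling, and -0.0789 to 0.0083) and DNAJC27 (-0.0059 with all 6 columns, and -0.11 to 0.15). The fit with all 6 columns adds the derived replicate 1 columns, whose divisors differ (1.1 in CON, 1.2 in KD). Its log2 changes are therefore shifted by construction, those given here for class C and DNAJC27 included. The median of all tested genes was -0.0553 in that fit, against -0.022 in the main fit. The causes of the other moves were not tested. With a library left out, the lone one was assumed to vary like the other group.

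Same-numbered replicates did not deviate together (correlation 0.0047 over 11916 genes), and the labels give the numbers no meaning. With the replicate block, 13 members were called higher and 10 lower, with class medians of 0.28, 0.41 and -0.11, and the calls of DNAJC4 (limma adjusted p = 0.0524) and DNAJC7 (0.0553) were lost. With 2 libraries a group and depth unknown, a member near 1 FPKM could show only a large change.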
